A study of Rattus norvegicus with 17 samples.

Results

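Complement is the cascade of serum and tissue proteins that labels debris, microbes and synapses for removal. 4 genes of it were followed here across the 17 rats of the study, out of 32494 genes in the count table: C1qa and C1qb of the classical pathway, C3 at the centre of the cascade, and Masp1 of the lectin pathway. They were chosen by name and identifier, with earlier results of these rats known and with attention to the levels in the rats given pimozide, so those levels are described here without a test. The identifiers are ENSRNOG00000012807 for C1qa, ENSRNOG00000012804 for C1qb, ENSRNOG00000046834 for C3 and ENSRNOG00000001827 for Masp1. The pairing of Masp1 with its identifier is also given by the study, whereas no table used here pairs the other 3 identifiers with a name, and markers of microglia, astrocytes and neurons could not be matched to identifiers.

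The rats were young-adult female Sprague-Dawley rats, and stimulation was given through an electrode in the nucleus raphé magnus (NRM), a serotonergic nucleus of the lower brainstem, days after the injury or sham injury. Group A (sham injury, sham stimulation) held 4 rats, group B (contusion of the thoracic cord, termed SCI, with sham stimulation) 3, group C (SCI with NRM stimulation) 3, group D (the same with pimozide at 1 mg/kg beforehand) 2 and group E (sham injury with stimulation) 5. Pimozide is an antagonist of dopamine D2 and 5-HT7 receptors, and the study has no group with pimozide alone or with pimozide and no stimulation. The treatment label of the group E rats calls them unstimulated, against the design text, and they were analyzed as stimulated. Cervical, thoracic and lumbar blocks of a cord were combined in a single library, so a value mixes the injured segment with cord on either side, and a change in the number of cells cannot be told apart from a change in the RNA of each cell. The libraries held 9852873 to 14137717 counts on genes. Expression is given as CPM, the counts of a gene relative to the TMM-scaled library size, and contrasts carry the names of the study, such as ±SCI(0) for B against A and ±pim(st/SCI) for D against C.

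In the classical pathway, C1q binds antibody complexes, dying cells or synapses. C1q is assembled from A, B and C chains, which C1qa, C1qb and C1qc encode, and in the central nervous system microglia are its main source. The lectin pathway starts from sugar-binding proteins such as ficolins, whose associated serine proteases include the products of Masp1; by alternative splicing this gene also encodes the protease MASP-3 and a truncated regulator, which counts per gene cannot separate. Both pathways lead to the cleavage of C3, whose fragments coat targets and attract phagocytes, and reactive astrocytes and macrophages are known to transcribe C3.

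The sequences before the gene starts are shown because C1qa, C1qb and Masp1 were higher in injured rats, by different amounts, while C3 overlapped between injured and intact rats. All 4 genes were found in the RefSeq table of promoters of build GRCr8, from which the 250 bases before the start are printed 5′ to 3′, with matches to the motifs searched in capitals.
C1qa, chr5:154419934-154420183, - strand: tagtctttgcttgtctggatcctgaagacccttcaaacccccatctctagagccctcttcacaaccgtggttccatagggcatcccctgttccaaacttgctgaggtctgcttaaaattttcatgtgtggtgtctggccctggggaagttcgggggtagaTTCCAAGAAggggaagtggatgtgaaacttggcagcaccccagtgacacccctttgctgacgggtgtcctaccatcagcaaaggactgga
C1qb, chr5:154407828-154408077, - strand: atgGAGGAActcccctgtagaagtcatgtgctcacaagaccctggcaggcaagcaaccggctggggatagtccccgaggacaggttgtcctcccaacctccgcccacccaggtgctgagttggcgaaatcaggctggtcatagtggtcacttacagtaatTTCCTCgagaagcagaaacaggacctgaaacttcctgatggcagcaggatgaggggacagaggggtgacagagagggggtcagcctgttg
C3, chr9:2201340-2201589, - strand: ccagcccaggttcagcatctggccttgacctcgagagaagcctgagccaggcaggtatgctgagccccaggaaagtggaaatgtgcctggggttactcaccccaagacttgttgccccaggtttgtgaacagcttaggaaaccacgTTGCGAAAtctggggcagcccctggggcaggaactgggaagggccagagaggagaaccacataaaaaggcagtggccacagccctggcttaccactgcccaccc
Masp1, chr11:90839472-90839721, + strand: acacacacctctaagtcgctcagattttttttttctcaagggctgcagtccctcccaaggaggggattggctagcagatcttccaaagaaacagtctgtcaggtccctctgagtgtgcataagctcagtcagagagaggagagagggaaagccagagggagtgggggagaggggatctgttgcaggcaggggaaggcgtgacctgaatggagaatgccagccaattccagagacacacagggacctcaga
In the same build C1qa and C1qb lie on chromosome 5 with 1 gene, C1qc, between them. Both strands were searched for 5 motifs, and overlaps between matches were allowed. GAGGAA, the ETS core that the myeloid factor PU.1 binds, matched 2 times in C1qb and is present in 23.3% of the 33469 promoters of the table. TTCNNNGAA, the GAS element of STAT factors, matched once in C1qa and is present in 7.67% of the promoters. TTGCNNAA, a C/EBP site, matched once in C3, as TTGCGAAA, and is present in 9.22%. The interferon-stimulated response element and the NF-kB site are present in 3.41% and 0.314% of the promoters and matched in none of the 4. Masp1 matched none of the 5 motifs in this window. A match is a string of letters, and its use was not measured here.

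The C1q genes separated the injured from the intact cords. C1qa, the gene of the A chain, had 51.5, 67.9, 39.9 and 58.1 CPM in rats 70, 82, 83 and 84 of group A, and 314.1, 170.9 and 279.0 CPM in rats 91, 94 and 95 of group B. With stimulation it had 319.0, 233.2 and 163.3 CPM in rats 89, 90 and 93 of group C, and 55.1, 79.7, 61.7, 57.5 and 81.0 CPM in rats 69, 85, 86, 87 and 88 of group E. The lowest injured rat lay at 2.02 times the highest intact rat. In ±SCI(0), C1qa rose 4.68-fold, a log2(FC) of 2.23 (SE 0.25, edgeR quasi-likelihood test, adjusted p = 2.2e-05).

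C1qb, the gene of the B chain, separated the same rats. It had 23.2, 25.9, 22.1 and 27.4 CPM in group A and 194.5, 94.3 and 166.1 CPM in group B, in the order of rats used above. Group C had 243.4, 135.8 and 89.7 CPM and group E 27.1, 35.6, 31.1, 29.9 and 38.3 CPM. In C1qa and C1qb no injured rat overlapped with an intact rat. Between groups A and B alone a lack of overlap was seen in 32.6% of all genes tested. The share over all injured and intact rats was not counted. C1qb rose 6.14-fold in ±SCI(0), a log2(FC) of 2.62 (SE 0.30, edgeR adjusted p = 3e-05).

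**Figure D1:**
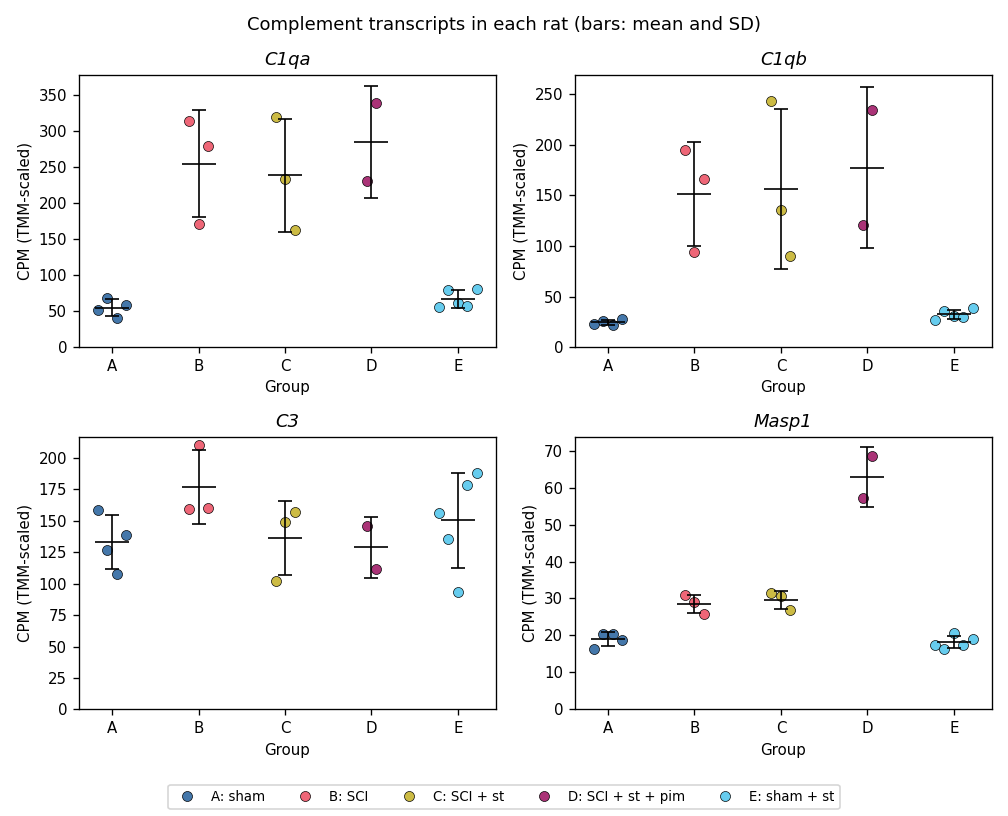
Levels of C1qa, C1qb, C3 and Masp1 in CPM after TMM scaling, with a point for each of the 17 rats by group and bars for the mean and SD. C1qa and C1qb separate the injured groups B, C and D from the intact groups A and E, C3 overlaps between injured and intact rats, and Masp1 lies at 57.1 and 68.5 CPM in group D, above all other rats.

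The contrasts with stimulated rats gave similar values for C1q. In ±st/SCI(0), C against A, the log2(FC) was 2.13 for C1qa (SE 0.24, adjusted p = 2.2e-05) and 2.66 for C1qb (SE 0.30, adjusted p = 1.8e-05), both by edgeR's test. This contrast shares group A with ±SCI(0), so that it is not independent of it. In ±SCI(st), C against E, which shares no rat with ±SCI(0), C1qa rose by 1.83 (SE 0.23, adjusted p = 2.5e-05) and C1qb by 2.27 (SE 0.27, adjusted p = 2e-05) on the log2 scale by edgeR's test.

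Injured rats differed widely from each other in C1qb, and the contrast with intact rats was smaller for C1qa. In group C, C1qb had an SD of 78.9 CPM around a mean of 156.3 CPM (n = 3), and in group B an SD of 51.7 CPM around 151.6 CPM (n = 3), whereas the SD was 2.42 CPM around 24.7 CPM in group A (n = 4) and 4.49 CPM around 32.4 CPM in group E (n = 5). Relative to the mean, the SD of C1qb was 9.83% and 13.9% in groups A and E and 34.1%, 50.5% and 45.0% in groups B, C and D. For C1qa it was 21.7% and 18.6% in groups A and E and 29.3%, 32.7% and 27.2% in groups B, C and D. The fitted spread between rats of a group, the biological coefficient of variation, was 22.1% for C1qa and 26.1% for C1qb against a median of 12.5% over all genes tested. C1qa and C1qb took nearly the same order among the 8 injured rats: rats 76, 89 and 91 were the highest 3 in each, and rats 94 and 93 the lowest 2.

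The balance of the C1q chains was also followed, as the number of C1qa counts for each C1qb count, which library size cannot change. The ratio was 2.21, 2.62, 1.80 and 2.12 in group A and 1.61, 1.81 and 1.68 in group B. It was 1.31, 1.72 and 1.82 in group C and 1.90 and 1.45 in group D, against 2.03, 2.24, 1.99, 1.92 and 2.12 in group E. Injured rats had a median ratio of 1.70 (n = 8) and intact rats a median of 2.12 (n = 9), with an overlap in rats 83, 93, 94 and 75. Of 5 contrasts compared, ±SCI(st) gave the smallest value, p = 0.036 in a 2-sided exact permutation test, which is the smallest possible with 3 rats against 5, and 0.18 after Benjamini-Hochberg adjustment. For ±SCI(0) and ±st/SCI(0) the exact test gave p = 0.11 each, adjusted to 0.19. The smallest p that this test allows is 0.057 for each of these, and with all 5 contrasts at their smallest p the adjusted value could not go below 0.071. These permutation tests of single contrasts could therefore not pass 0.05 after adjustment, and they do not decide whether the ratio differed with injury. All 8 injured against all 9 intact rats were not tested.

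Stimulation gave no call for C1q in injured or intact rats. In ±st(SCI), C against B, the log2(FC) was -0.09 for C1qa (SE 0.25) and 0.04 for C1qb (SE 0.30), with adjusted p = 1 for each in edgeR's quasi-likelihood test. In ±st(0), E against A, the values were 0.30 (SE 0.22, adjusted p = 0.74) and 0.39 (SE 0.27, adjusted p = 0.73), again from edgeR. The groups overlapped in each of these comparisons. The signs in ±st(SCI) turned with single rats: C1qa was at 0.13 without rat 93 of group C and at 0.08 without rat 91 of group B, and C1qb was at -0.43 without rat 89 of group C and at -0.21 without rat 94 of group B.

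In the rats given pimozide, C1qa had 230.1 CPM in rat 75 and 339.5 CPM in rat 76, and C1qb had 121.1 and 234.2 CPM. Both genes lay within or close to the range of group C, and the log2(FC) in ±pim(st/SCI) was 0.26 for C1qa (SE 0.28) and 0.18 for C1qb (SE 0.34). With each rat of these groups left out, C1qa ranged from -0.05 (without rat 76) to 0.52 (without rat 89) and C1qb from -0.37 to 0.65, without the same rats. C1qb was also below 0 without rat 93 of group C, at -0.10, and without rat 75 the values were 0.51 and 0.58. With a term in the model for whether a rat's number lay between 69 and 76, they were 0.48 (SE 0.39) and 0.40 (SE 0.48). Against the intact rats of group A the same rats were 5.23-fold higher in C1qa and 7.19-fold higher in C1qb.

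C3, on which the pathways converge, did not follow C1q. It had 158.6, 127.0, 107.9 and 138.8 CPM in group A and 159.3, 210.7 and 160.6 CPM in group B. The groups did not overlap, but 0.69 CPM separated the lowest rat of group B from the highest of group A. Group C had 102.5, 149.1 and 157.2 CPM, group D 145.9 and 111.9 CPM, and group E 156.5, 135.7, 93.5, 178.4 and 187.8 CPM. Injured and intact rats covered nearly the same range, with a median of 153.1 CPM (n = 8) and 138.8 CPM (n = 9).

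In ±SCI(0), C3 had a log2(FC) of 0.41 (SE 0.21, edgeR quasi-likelihood test, adjusted p = 0.2). When only groups A and B were fitted, the value of 0.42 (SE 0.13) passed (edgeR, adjusted p = 0.036), and without rat 94 of group B it was 0.27 (edgeR, adjusted p = 0.47). In ±st/SCI(0) it was 0.03 (SE 0.21, adjusted p = 0.92) and in ±SCI(st) -0.14 (SE 0.20, adjusted p = 0.62) by edgeR's test, and the sign of both depended on which rat was left out.

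**Figure D2:**
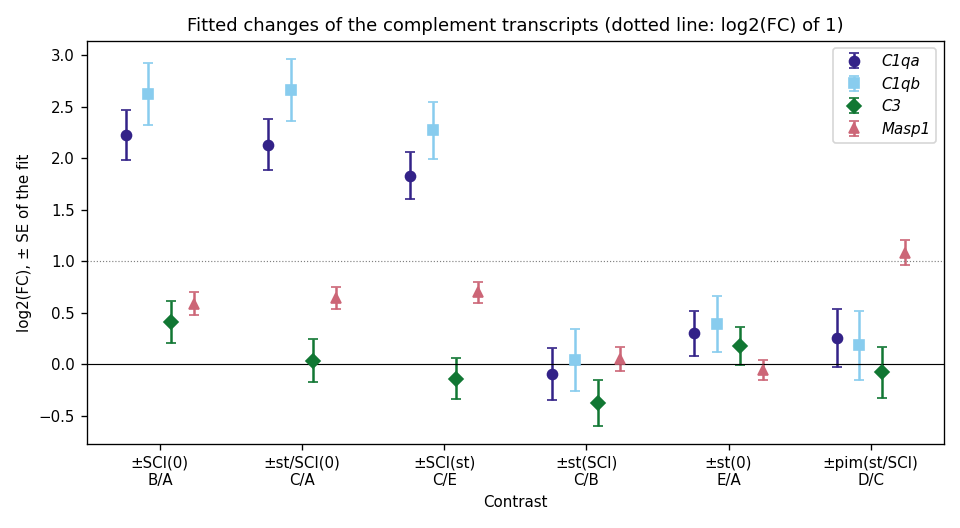
Fitted log2(FC) of the 4 genes in the 6 contrasts of the study, with bars for the SE of edgeR's quasi-likelihood fit of all 17 rats and a dotted line at a log2(FC) of 1. C1qa and C1qb lie between 1.83 and 2.66 in the 3 contrasts of injured with intact rats and between -0.09 and 0.39 elsewhere. Masp1 passes 1 in the pimozide contrast only.

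Stimulated and unstimulated injured rats did not overlap in C3, with 102.5 to 157.2 CPM in group C and 159.3 to 210.7 CPM in group B. This was 1 of the 4 genes, beside 6.15% of all genes tested whose groups B and C did not overlap. The log2(FC) in ±st(SCI) was -0.38 (SE 0.22, edgeR quasi-likelihood test, adjusted p = 1, unadjusted p = 0.11). It was -0.21 without rat 89 of group C, -0.23 without rat 94 of group B and -0.48 without rat 93 of group C. In intact rats the change with stimulation was 0.18 (SE 0.18, edgeR adjusted p = 0.83). The difference between these changes, tested as an interaction in the same edgeR model, was -0.55 (SE 0.29, unadjusted p = 0.072, adjusted p = 1). In ±pim(st/SCI) the log2(FC) of C3 was -0.08 (SE 0.25), and it ranged from -0.28 without rat 75 to 0.0997 without rat 76. It was -0.25 without rat 89 and 0.03 without rat 93 of group C, and -0.29 (SE 0.33) with the same term for the rat numbers.

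Among the 8 injured rats, C3 and C1q agreed in rank for some rats and not for others. Rats 89 and 76 had the 2 highest C1qb values, 243.4 and 234.2 CPM, and the 2 lowest C3 values, 102.5 and 111.9 CPM. Rat 94, with the second lowest C1qb, had the highest C3, at 210.7 CPM. Rats 91 and 95 were the third and the fourth in C1qb and the third and the second in C3, and rats 90 and 75 held ranks 5 and 6 in both genes. These are single rats of different groups, and the order is given as a description.

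**Figure D3:**
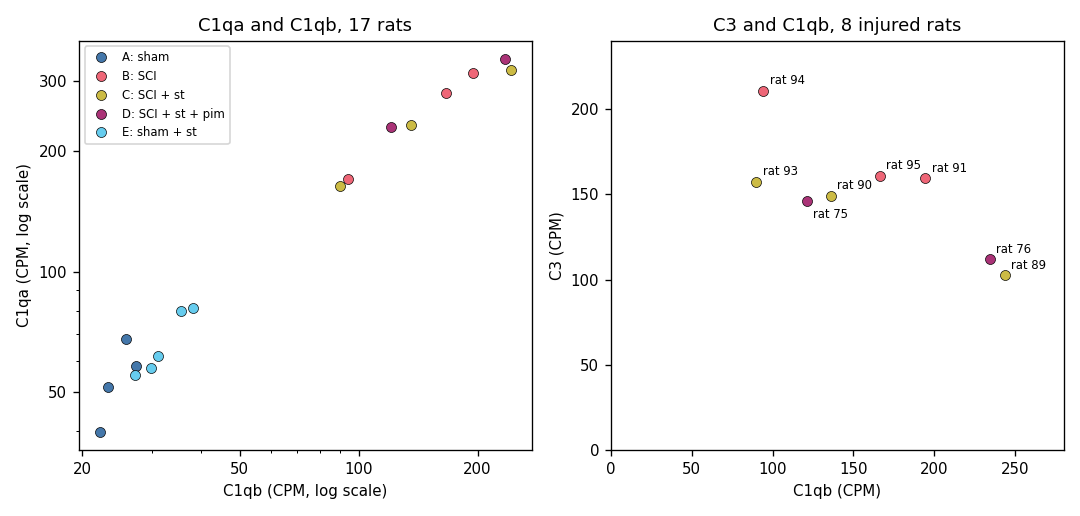
Left, C1qa against C1qb in CPM on log axes for the 17 rats, coloured by group. Right, C3 against C1qb in CPM for the 8 injured rats, labelled by rat number, where rats 89 and 76 have the highest C1qb, at 243.4 and 234.2 CPM, and the lowest C3.

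Masp1 differed from the other 3 genes in its narrow spread and in the pimozide rats. It had 16.4, 20.3, 20.4 and 18.7 CPM in group A, and 17.5, 16.2, 20.8, 17.6 and 19.0 CPM in group E. The injured rats without pimozide had 30.8, 29.0 and 25.8 CPM in group B and 31.5, 30.6 and 26.8 CPM in group C. All 6 lay above all 9 intact rats. The share of all genes split in this way was not counted. Between single groups a lack of overlap was seen in 32.6% (A and B), 28.9% (A and C) and 27.1% (E and C) of genes. Its biological coefficient of variation, 9.63%, was below the median of all genes tested.

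The fold of Masp1 with injury was small and passed the FDR in each of the 3 contrasts. In ±SCI(0) it rose by a log2(FC) of 0.59 (SE 0.11, edgeR quasi-likelihood test, adjusted p = 0.0019). In ±st/SCI(0) the log2(FC) was 0.64 (SE 0.11, adjusted p = 0.00058) and in ±SCI(st) 0.70 (SE 0.10, adjusted p = 0.00012), both from edgeR. With stimulation the log2(FC) was 0.05 in injured rats (SE 0.12, adjusted p = 1) and -0.06 in intact rats (SE 0.10, adjusted p = 0.91), in the same edgeR test.

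In the 2 rats of group D, Masp1 had 57.1 CPM (rat 75, 801 counts) and 68.5 CPM (rat 76, 754 counts). The lower of them was 1.81 times the highest of the other 15 rats, which was rat 89 of group C at 31.5 CPM. The log2(FC) in ±pim(st/SCI) was 1.08 (SE 0.12), a 2.12-fold higher level than in group C. Against group B the log2(FC) was 1.14 (SE 0.12) and against group A 1.72 (SE 0.12). Masp1 was chosen for this difference, and no test of it is given.

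Both rats of group D carry numbers between 69 and 76, as do 2 intact animals, rat 70 (group A) and rat 69 (group E), while the rats of groups B and C carry numbers from 89 to 95. Masp1 was at 16.4 CPM in rat 70 and 17.5 CPM in rat 69, within the 16.2 to 20.8 CPM of all intact rats. When the model also held the number series, the log2(FC) in ±pim(st/SCI) was 1.25 (SE 0.17). The term for the series rests on those 2 intact rats. Among injured rats the number series cannot be told apart from pimozide, and its part was not tested. In the model without that term, the log2(FC) was 1.21 without rat 75 and 0.95 without rat 76. There the remaining rat of group D is taken to vary like the other groups.

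Of the lists of marker genes, the neutrophil (7 of 7) and erythroid (6 of 6) lists could be matched in full, and the interferon response list in 6 of 10 genes. All of these names come from the study's own list of changed genes and are not independent of ±st(SCI) and ±pim(st/SCI). The 6 interferon response genes (Mx1, Mx2, Oasl, Oas2, Ifit2 and Uba7) summed to 198.8 and 465.6 CPM in rats 75 and 76, against 64.5 to 146.3 CPM in group C, 85.6 to 154.7 CPM in group B and 44.0 to 81.4 CPM in groups A and E. Since they could be matched only through that list, their higher level in group D than in group C is a description and not a result about interferon response. The 7 neutrophil genes summed to 75.8 to 124.9 CPM in group C and to 19.99 and 30.4 CPM in group D, with 5.52 to 70.9 CPM in group A and 6.38 to 73.1 CPM in group E. The 6 erythroid genes summed to 429.8 to 1249 CPM in group C and to 174.6 and 254.4 CPM in group D, with 153.6 to 795.6 CPM in group A and 183.8 to 458.7 CPM in group E. Some intact rats thus came close to group C in the neutrophil genes or lay within its range in the erythroid genes. In group B the neutrophil genes summed to 16.1 to 21.1 CPM and the erythroid genes to 203.1 to 297.5 CPM. The part of interferon response, neutrophils or erythroid cells in the level of Masp1 was not tested.

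**Figure D4:**
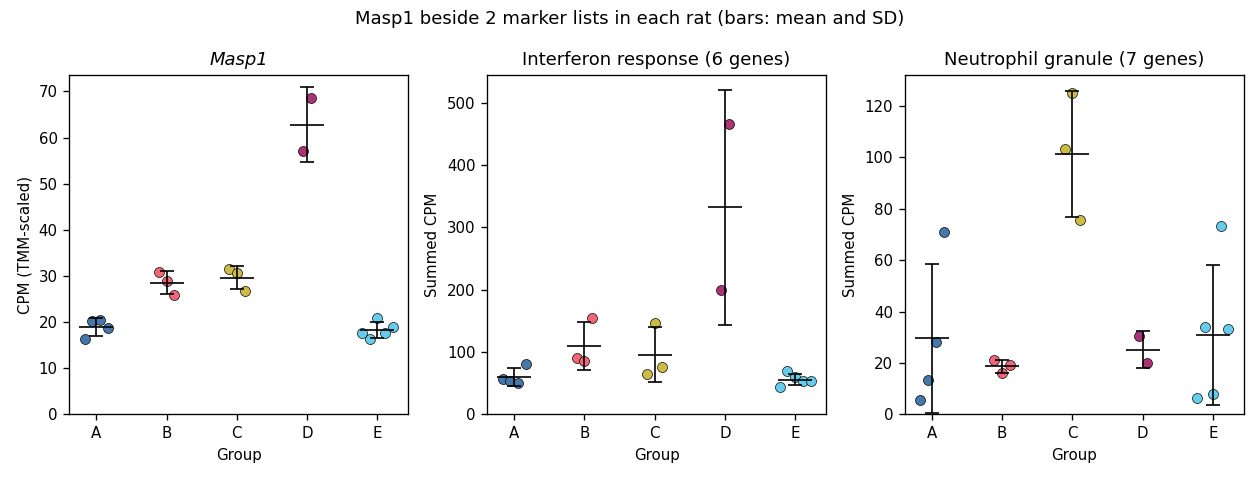
Masp1 in CPM (left) beside the summed CPM of 6 interferon response genes (middle) and of 7 neutrophil granule genes (right), with a point for each rat by group and bars for the mean and SD. Masp1 and the interferon response genes are both highest in group D, at 57.1 and 68.5 CPM and at 198.8 and 465.6 summed CPM, and the neutrophil genes are highest in group C; both marker sums hold genes named only by the study's list of changed genes.

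Over the 4 genes, 3 passed an FDR of 0.05 in ±SCI(0), beside 12.4% of the 15460 genes tested, and 2 of them, C1qa and C1qb, also passed an absolute log2(FC) of 1, beside 5.30% of all genes. The same 3 and 2 genes passed in ±st/SCI(0), beside 21.9% and 7.13% of genes, and in ±SCI(st), beside 28.6% and 8.31% of genes. Groups B and A were free of overlap in 4 of the 4 genes, beside 32.6% of all genes tested. Groups A and C, and groups E and C, did not overlap in 3 of the 4, beside 28.9% and 27.1% of genes. In ±pim(st/SCI) the groups did not overlap in 1 gene, Masp1, beside 18.0% of genes. In ±st(0) the groups overlapped in all 4 genes, beside 2.46% of genes that did not. Against group B the pimozide rats did not overlap in 2 genes, Masp1 and C3, beside 23.3% of genes, and against group A in 3, beside 45.3%. In ±st(SCI) and ±st(0) edgeR's quasi-likelihood test called 0 genes of all those tested, with 476 and 1297 at an unadjusted p under 0.05. In ±st(SCI) the exact test of edgeR and DESeq2 also called 0, while in ±st(0) each called 15 at an FDR of 0.05 and an absolute log2(FC) over 1, and 33 and 38 at the FDR alone, none of them among the 4. The median log2(FC) of all genes was -0.02 in each of the 3 contrasts of injured with intact rats.

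The order of the group means showed the same split. For C1qa it ran, from low to high, A, E, C, B and D, for C1qb A, E, B, C and D, and for Masp1 E, A, B, C and D. For C1qa and C1qb only the step from intact to injured groups was free of overlap between neighbouring groups. For Masp1 the step from A to B and the step from C to D were free of overlap. For C3 the order was D, A, C, E and B, and all neighbouring groups overlapped.

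Only 5 of the 53 complement genes listed could be matched to an identifier, so counts over the pathway could not be made. Beside the 4 genes, the match was Fcnb (ENSRNOG00000009342), ficolin B, a recognition molecule of the lectin pathway that myeloid cells make and store. Fcnb is on the study's list of genes changed by stimulation after injury. It had 0.21 to 2.66 CPM in group A, 2.12 to 3.47 in group B, 5.91 to 14.2 in group C, 5.56 and 5.997 in group D and 0.51 to 2.25 in group E. Its log2(FC) was 1.05 in ±SCI(0) (SE 0.51, edgeR quasi-likelihood test, adjusted p = 0.18) and 2.70 in both ±st/SCI(0) (SE 0.47, adjusted p = 0.00066) and ±SCI(st) (SE 0.43, edgeR adjusted p = 0.00025). In ±st(SCI), the contrast it was listed for, its groups did not overlap and the log2(FC) was 1.65 (SE 0.48, edgeR adjusted p = 1, unadjusted p = 0.003). In ±pim(st/SCI) the log2(FC) of Fcnb was -0.71 (SE 0.51, edgeR adjusted p = 0.73), and its groups C and D overlapped. Fcnb was listed for its level in group C, which ±st/SCI(0), ±SCI(st), ±st(SCI) and ±pim(st/SCI) all hold. The study also flagged Fcnb in ±st/SCI(0) and ±SCI(st). The p-values of Fcnb in these contrasts are therefore not independent evidence.

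Likeness to each gene was measured as the root mean square difference of log2(CPM + 0.1), centered on the 17 rats, against 14514 other genes that averaged 1 CPM or more. C1qb was the 13th gene nearest to C1qa and C1qa the 14th nearest to C1qb, at 0.23 log2 units. The nearest to C1qb was ENSRNOG00000021031, at 0.16 log2 units, with means of 59.8, 313.0, 372.3, 468.5 and 69.9 CPM in groups A to E. The gene nearest to Masp1 was ENSRNOG00000042182, at 0.25 log2 units, with means of 4.58, 9.21, 9.59, 13.8 and 4.65 CPM. None of the 3 nearest genes of C1qa, C1qb, C3 or Masp1 has a name in the tables used here. Masp1 lay at 0.70 log2 units from both C1qa and C3.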

How the data were processed

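RNA of 17 spinal cords was sequenced from ribosomal RNA-depleted, stranded libraries with single-end reads. The authors trimmed adapters with Trim Galore (0.4.1 in the submitters' processing notes), aligned with STAR (2.5.0a) and deposited whole-number counts of reads per Ensembl gene, without normalization. The methods and the processing notes name different assemblies of the rat genome, and the strand setting of the counts is not stated, so reads of overlapping genes cannot be told apart.

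Groups follow the letter in the sample titles. Genes were kept by edgeR's filterByExpr, which left 15460, including the 4 genes described, and fitted with glmQLFit (edgeR 4.0.16, R 4.3.3) in 1 model of all 17 rats with TMM scaling. Contrasts were tested with glmQLFTest and Benjamini-Hochberg adjustment over all genes tested. Standard errors (SE) were derived from the F statistics. The test was checked on simulated data. Alternatives used DESeq2 1.42.0 and other settings. Exact permutation tests used scipy 1.17.1. The 4 genes and the lists were chosen with earlier results of these data known, so their p-values are not independent evidence. Genes were named by this rule: the 4 genes, listed complement genes called in a contrast, and the 3 genes nearest to each by likeness. Of the nearest genes only 2 are printed because they have no names. The matched interferon response genes are also named, as members of a marker list. The 4 genes had 157 to 3736 counts per rat. Pairs of rats of a group gave a chi-square per degree of freedom of 4.19 to 38.5 over all genes, so no library was a repeat of another. Over all genes together, rats of a group differed by more than random counting, which need not hold for genes of low count. Fcnb had 2 counts in rat 70 and 6 in rat 69. Each rat is a separate animal. Names of listed genes came from the study's supplementary list, which gives 102 identifiers with the 4 genes. Promoters came from RefSeq (GRCr8), and no coordinates in the build of the counts are given.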

Additional observations from a re-analysis of the deposited data

How the results depend on the processing

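No paired analysis was possible because the groups share no rat numbers. The rises of C1qa, C1qb and Masp1 in the 3 contrasts of injured with intact rats kept their sign and an FDR under 0.05 with the edgeR exact test, DESeq2, total-count and RLE scaling, no filter, a filter of 1 CPM in 3 rats, robust dispersions, the number series as a term, the contrast's groups alone and each rat left out. The highest adjusted p over these was 0.018, for Masp1 in ±SCI(0). With groups A and B alone, C3 in ±SCI(0) passed at a log2(FC) of 0.423. With A and E as 1 intact group, chosen after seeing the data, C3 in ±st/SCI(0) was at -0.0661. With the number series (69 to 76 against 82 to 95) as a term, Masp1 in ±pim(st/SCI) was at 1.2508, C1qa at 0.484, C1qb at 0.4022 and C3 at -0.2875. The cause was not tested in these cases. With each rat left out, C3 in ±st/SCI(0) lay between -0.07 and 0.2034, and its lowest and highest values in ±SCI(st) were -0.2727 and 0.028. In ±st(SCI) the ranges were -0.0134 to 0.1313 for Masp1, -0.3617 to 0.128 for C1qa, -0.4284 to 0.3349 for C1qb and -0.4818 to -0.2078 for C3. In ±pim(st/SCI), over all genes, 4 passed an FDR of 0.05 and an absolute log2(FC) over 1 in the quasi-likelihood test, against 44 in the exact test, 32 in DESeq2, 17 without a filter, 9 with the groups of the contrast alone, and 1 each with robust dispersions and with the number series as a term. Without rat 75 the quasi-likelihood test called 36 and without rat 76 it called 0, and leaving out rat 89, 90 or 93 gave 1, 3 or 1. At the FDR alone the quasi-likelihood test called 5, and the exact test and DESeq2 77 each. Counts over the complement list were not run, as 5 of its 53 genes could be matched to an identifier.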
